A study of Mus musculus with 4 samples.

Results

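The genes examined here were 8 genes of fat cells and of fatty acid synthesis, measured in gastrocnemius, a fast calf muscle, of mice. They were chosen by name, as every probe set whose platform annotation gave Adipoq, Retn, Lipe, Fabp4, Pparg, Acly, Scd1 or Fasn as its only symbol. All 8 of the 8 names had a probe set, 10 probe sets in all, out of 8251 genes on the array. Scd1 had 3 probe sets and each of the other genes had 1.

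Messenger RNA was measured on 4 Affymetrix MG-U74Av2 arrays, 1 array for each group, and each array carried RNA pooled from the muscles of 10 mice. The groups were intact mice, adrenalectomized mice killed 1 week after surgery, and adrenalectomized mice that had received 0.1 mg of cortisol intraperitoneally either 3 h or 24 h earlier. Surgery removes the source of corticosterone, the main rodent glucocorticoid, and cortisol binds the same receptor. No strain, sex, age, sham-operated group, vehicle-injected group or time of day was given in the labels, and the time since surgery of the injected mice was not given. With 1 array per group no test could be made. Every difference below is between 2 pools, and group, pool and fluidics module cannot be told apart.

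Fat cells lie between the fibres of a muscle and store triglyceride. Adiponectin and resistin are hormones that fat cells release, hormone-sensitive lipase frees fatty acids from stored fat, and PPARγ is the transcription factor that directs fat cell formation. New fatty acids are built from cytosolic acetyl-CoA, which ATP citrate lyase supplies, by fatty acid synthase, and stearoyl-CoA desaturase then adds a double bond. Adipoq and Retn are largely restricted to fat cells in the mouse, whereas muscle fibres also make Lipe, Acly, Fasn and Scd1, and macrophages and endothelial cells also make Fabp4. Glucocorticoids are known to act on fat storage and on the release of fatty acids in fat tissue.

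On these arrays the signals of both hormone genes, Adipoq and Retn, were highest in intact muscle, lower after adrenalectomy and lowest 24 h after cortisol. Lipe and Fasn were also lower after adrenalectomy; the Fasn signal 3 h after cortisol was close to the intact one, and the Lipe signal stood between those of the intact and adrenalectomized arrays. Fabp4, Acly and the brightest Scd1 probe set differed by at most 1.18-fold over the 4 arrays. Pparg was not measured, since its signals were below the floor on all 4 arrays.

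The promoter windows of the hormone genes and of Fasn are shown because Adipoq and Retn had like signals over the arrays, whereas Fasn had a like ratio after adrenalectomy and another one after cortisol. Each runs from 250 bases before to 50 bases after the annotated start, is written 5′ to 3′ on the gene's strand, and comes from RefSeq on GRCm38.p6. Capitals mark CCAAT on either strand, the only searched motif that these 3 windows hold. The Adipoq window is chr16:23146286-23146585 on the plus strand, the Retn window chr8:3655520-3655819 on the plus strand and the Fasn window chr11:120824498-120824797 on the minus strand.
Adipoq: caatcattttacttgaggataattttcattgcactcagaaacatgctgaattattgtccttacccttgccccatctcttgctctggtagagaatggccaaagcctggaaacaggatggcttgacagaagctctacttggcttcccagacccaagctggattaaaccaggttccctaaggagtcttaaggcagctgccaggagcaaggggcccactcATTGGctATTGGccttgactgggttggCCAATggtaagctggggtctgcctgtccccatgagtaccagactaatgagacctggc
Retn: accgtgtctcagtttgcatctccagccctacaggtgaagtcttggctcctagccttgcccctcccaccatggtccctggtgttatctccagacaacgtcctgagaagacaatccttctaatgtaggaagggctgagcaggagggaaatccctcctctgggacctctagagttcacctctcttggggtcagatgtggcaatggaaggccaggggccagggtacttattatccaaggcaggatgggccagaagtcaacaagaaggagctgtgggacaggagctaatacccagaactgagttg
Fasn: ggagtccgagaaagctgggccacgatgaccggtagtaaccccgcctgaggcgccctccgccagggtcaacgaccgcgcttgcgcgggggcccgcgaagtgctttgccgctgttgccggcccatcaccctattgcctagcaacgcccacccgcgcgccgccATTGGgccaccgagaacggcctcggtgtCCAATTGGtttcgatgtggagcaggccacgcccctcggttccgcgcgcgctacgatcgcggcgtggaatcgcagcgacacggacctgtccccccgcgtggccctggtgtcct

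The motifs were searched on both strands. The glucocorticoid half-site was AGAACA, and the full glucocorticoid element was this half-site, 3 bases of any kind and the half-site's reverse complement. The PPAR-RXR element was 2 copies of AGGTCA with 1 base of any kind between them. The sterol element was TCACCCCAC. The E-box was CACGTG. The GC box was GGGCGG. The last 2 motifs were CCAAT and the TATA box, searched as TATAAA. A full glucocorticoid element also counts as its half-site, and no other of these motifs lies within another. The table held 9 windows for 6 of the 8 genes. None of the 9 held either glucocorticoid motif, the PPAR-RXR element or the sterol element, which 0.00913%, 19.0%, 0.0396% and 0.551% of all 32851 windows held. CCAAT was found 3 times in the Adipoq window, 3 times in the Fasn window, where the last 2 matches overlap, and not in the Retn window. It was held by 5 of the 9 windows and by 37.4% of all windows. The first of the 2 Lipe windows held 1 E-box and 6 GC boxes, 2 of which overlap, and its second window held no searched motif. An E-box was held by 7.15% of all windows, a GC box by 35.7% and TATAAA by 13.6%.

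Signals below were scaled so that the trimmed mean of each array was 500, and signals under a floor of 100 were set to it before a ratio was taken. The share of probe sets at or above the floor lay between 63.0% and 64.4%, and the median signal between 189 and 199.6. As a measure of error, the SD of a log2 ratio was taken from genes represented more than once; it was 0.24 for the effect of adrenalectomy, 0.28 for 3 h and 0.32 for 24 h of cortisol against adrenalectomy alone, 0.31 for 24 h against 3 h and 0.32 for 24 h against intact. From genes whose probe sets both had a mean signal of at least 300 it was smaller, 0.19, 0.22, 0.27, 0.27 and 0.29 in the same order. Multiples below use the first, wider SD. Neither SD holds variation between mice or pools. The injection was visible in Fkbp5, which encodes a receptor-bound chaperone and is a direct glucocorticoid target: its signal was 1349 in intact mice, 796 after adrenalectomy, 3771 at 3 h and 1418 at 24 h. Of 20 genes listed as glucocorticoid-induced, 15 were at least 1.5-fold higher at 3 h than after adrenalectomy alone, where 5.07% of 6168 genes were. This list was chosen with earlier results of these data known, so its count is a description only.

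Adipoq, which encodes adiponectin and was read by probe set 99104_at, had a signal of 1802 in intact mice, 1319 after adrenalectomy, 1171 at 3 h and 1156 at 24 h. The intact array was thus the highest, and the arrays at 3 h and 24 h were nearly alike. Adrenalectomized mice were 1.37-fold lower than intact mice, a log2 ratio of -0.45 and 1.88 times the error SD. The log2 ratio against adrenalectomized mice was -0.17 at 3 h and -0.19 at 24 h, each within the error SD. At 24 h the signal was 1.56-fold lower than in intact mice, a log2 ratio of -0.64 and 1.98 times the error SD.

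Retn, which encodes resistin and was read by 102366_at, had a signal of 525 in intact mice, 384 after adrenalectomy, 324 at 3 h and 303 at 24 h. The order of the arrays was the same as for Adipoq. The ratio of adrenalectomized to intact mice was also the same, 1.37-fold lower. The log2 ratio against adrenalectomized mice was -0.25 at 3 h, within the error SD but outside the 0.22 from brighter genes. It was -0.34 at 24 h, 1.07 times the error SD. On the same arrays, the summed signal of hepatocyte markers was 74.5%, 58.7% and 52.1% of the intact value and that of the other adipocyte markers was 97.8%, 95.7% and 95.1%; their part in the values of both genes was not tested. Of the latter sum 89.7% came on the intact array from Car3, Lpl, Slc2a4, Pnpla2 and Lpin1, which muscle fibres also make. Without these 5, chosen after the values had been seen, the other 10 markers summed to 95.3%, 98.9% and 94.5%. These 10 include Agt, which liver also makes, so neither sum reads fat cells alone. At 24 h Retn was 1.73-fold lower than in intact mice, a log2 ratio of -0.79 and 2.45 times the error SD, the widest difference among the 7 genes compared, over all 5 comparisons.

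Of 5452 genes at or above the floor on all arrays, 291 had signals in the same falling order of arrays (5.34%), and 53 of them by at least 1.5-fold from intact to 24 h (0.972%). Likeness of pattern was measured as the Euclidean distance between log2 signals centred over the 4 arrays, where 4 points give little to tell genes apart. By this measure Adipoq was the second nearest of the 5452 genes to Retn, at a distance of 0.13, after Aqp4 at 0.06 and before Tnfrsf17 at 0.15. Retn was the fifth nearest to Adipoq, and the 3 nearest were Amacr at 0.10, Bdkrb1 at 0.10 and Uck1 at 0.11. Within a distance of 0.24, the error SD of the first comparison, lay 24 genes for Retn and 79 for Adipoq. That SD belongs to a single ratio and not to a distance over 4 arrays, so 0.24 is a plain cut-off here and not a limit of error.

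**Figure D1:**
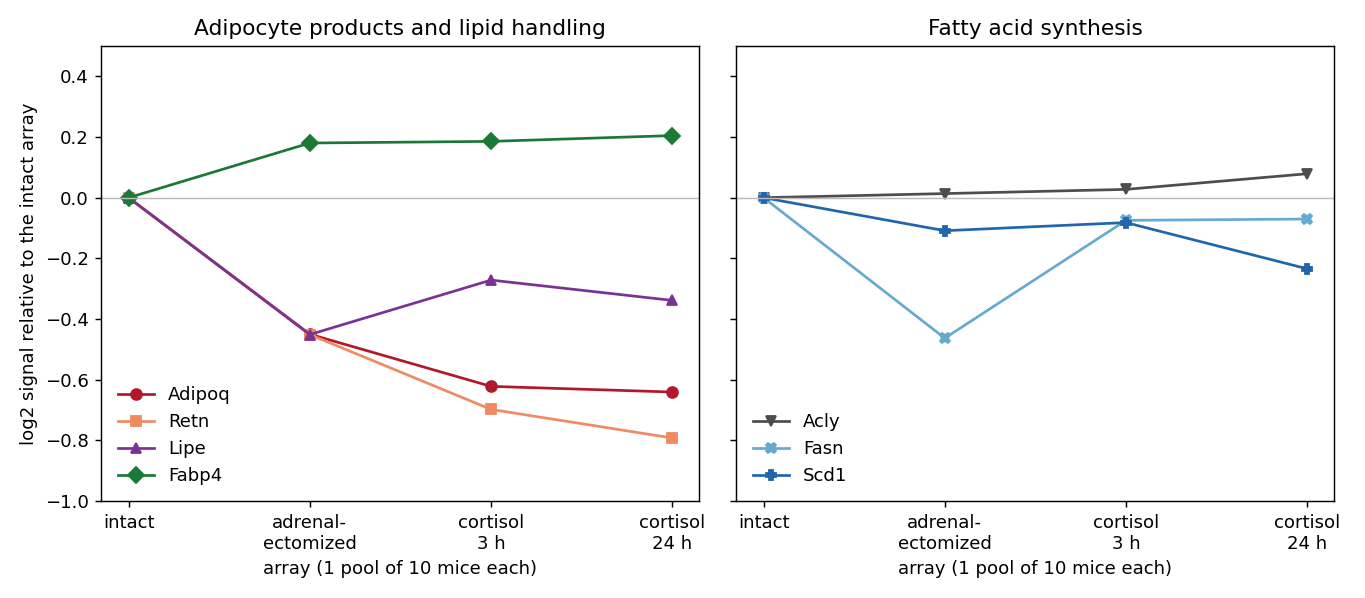
Log2 signal of each gene relative to the intact array (vertical axis) on the 4 arrays (horizontal axis), 1 line per gene, with 1 pool of 10 mice per point and therefore no error bars. Left panel: Adipoq and Retn end at -0.64 and -0.79 at 24 h, Lipe at -0.34 and Fabp4 at 0.20. Right panel: Fasn is at -0.46 after adrenalectomy and at -0.07 at 24 h, and Acly and Scd1 lie between 0.08 and -0.23.

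Lipe, which encodes hormone-sensitive lipase and was read by 103083_at, had a signal of 337 in intact mice, 246 after adrenalectomy, 279 at 3 h and 266 at 24 h. The intact array was the highest and the other 3 lay close together. The ratio after adrenalectomy was 1.37-fold lower, 1.89 times the error SD. Both cortisol arrays were above the adrenalectomized one, with log2 ratios of 0.18 at 3 h and 0.11 at 24 h, inside the error SD, and at 24 h the log2 ratio to intact mice was -0.34. The 3 genes nearest in pattern to Lipe were Tmx1 at 0.02, Efnb1 at 0.03 and Cstf2t at 0.05, and 341 genes lay within 0.24.

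Fabp4, which encodes the fatty acid carrier of fat cells and was read by 100567_at, had a signal of 509 in intact mice, 576 after adrenalectomy, 579 at 3 h and 586 at 24 h. It was lowest on the intact array, where the hormone genes were highest. The log2 ratio of adrenalectomized to intact mice was 0.18, that of 24 h to intact mice was 0.20, and those of the cortisol arrays to the adrenalectomized array were 0.01 and 0.02, all inside the error SD. Its nearest genes were Mrpl41, Galnt1 and Fam13b, each at 0.02, and 1676 genes lay within 0.24. The probe set of Pparg, 97926_s_at, whose suffix marks probes that match more than 1 transcript, had signals of 93.9 in intact mice, 97.3 after adrenalectomy, 55.6 at 3 h and 96.3 at 24 h. All 4 were under the floor, so no fold is given; with a floor of 50 Pparg passed 1.5-fold lower at 3 h.

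Among the genes of fatty acid synthesis, Fasn, which encodes the enzyme that assembles palmitate and was read by 98575_at, had a signal of 1081 in intact mice, 784 after adrenalectomy, 1027 at 3 h and 1030 at 24 h. Only the adrenalectomized array stood apart, 1.38-fold below the intact array and 1.94 times the error SD. Both cortisol arrays were 1.31-fold above the adrenalectomized one, 1.39 times the error SD at 3 h and 1.24 times at 24 h, and the 24 h array had a log2 ratio of -0.07 to the intact one. The nearest genes in pattern were Tenm3, Spib and Pik3r2, each at 0.04, and 222 genes lay within 0.24.

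Acly, which encodes ATP citrate lyase and was read by 160207_at, had a signal of 713 in intact mice, 720 after adrenalectomy, 727 at 3 h and 753 at 24 h. Its highest and lowest arrays differed by 1.06-fold, the narrowest range among the 7 genes measured. The log2 ratios in the 5 comparisons lay between 0.01 and 0.08. The nearest genes were Glo1 at 0.01, Selenok at 0.02 and Vmp1 at 0.02, and 2236 genes lay within 0.24.

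Scd1, which encodes stearoyl-CoA desaturase, had 3 probe sets that differed among themselves. The brightest, 94056_at, had a signal of 5292 in intact mice, 4907 after adrenalectomy, 4999 at 3 h and 4499 at 24 h, with 24 h the lowest. The next, 94057_g_at, whose suffix marks probes shared with another set, had 4504, 4145, 3631 and 4372 in the same order, with 3 h the lowest. Their log2 ratios were -0.11 and -0.12 for adrenalectomized against intact, 0.03 and -0.19 for 3 h against adrenalectomized, and -0.15 and 0.27 for 24 h against 3 h. They gave the same ratio after adrenalectomy and opposite signs in these other 2 comparisons, the last with a difference of 0.42 between them.

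The third, 94058_r_at, whose suffix marks a set built under relaxed rules, had signals of 110.3 in intact mice, 129 after adrenalectomy, 147 at 3 h and 59.1 at 24 h. It was near the floor on 3 arrays and under it at 24 h, at least 1.47-fold below the 3 h array, a difference seen in neither bright set. By the brightest set the nearest genes to Scd1 in pattern were Thrap3 at 0.01, Hsd17b10 at 0.02 and R3hdm1 at 0.02, and 1652 genes lay within 0.24.

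**Figure D2:**
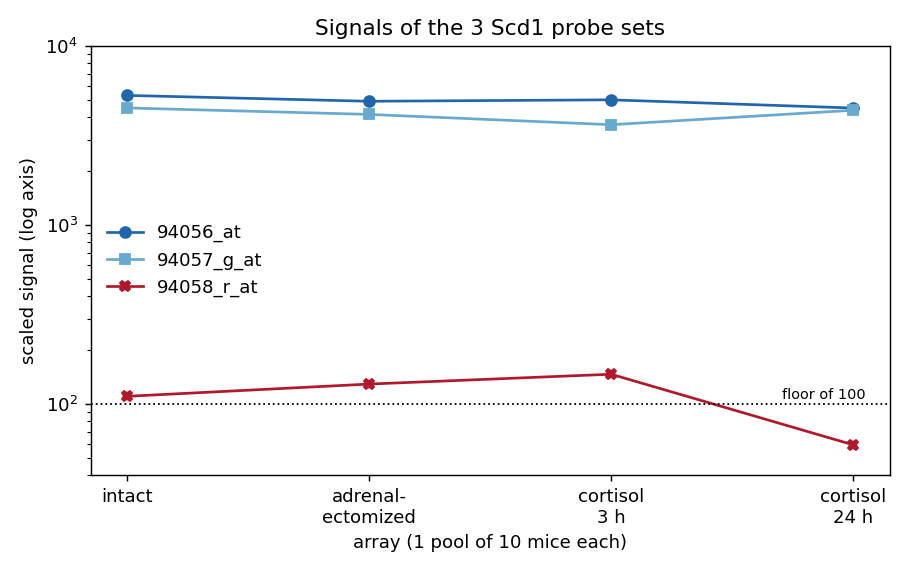
Scaled signal of the 3 Scd1 probe sets (vertical axis, log scale) on the 4 arrays, 1 pool per point, with the floor of 100 as a dotted line. The bright sets stay between 3631 and 5292, and 94058_r_at goes from 147 at 3 h to 59.1 at 24 h.

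Read together, 7 of the 8 genes were compared in each of the 5 comparisons, all but Pparg. Adrenalectomized against intact muscle compares mice without and with adrenal glands. No sham-operated group was named, so loss of the adrenal hormones and the surgery itself cannot be told apart. No gene of the 7 passed 1.5-fold, a size that 4.91% of 6112 genes passed. At a smaller size, at least 20% lower or 25% higher, chosen after the values had been seen, 4 of the 7 were lower (Adipoq, Retn, Lipe and Fasn) and 0 higher, where 8.70% of all genes were lower by as much. Among genes with a mean signal of at least 300 over the 4 arrays, which leaves out Lipe, it was 3 of 6 and 5.25% of 3979. The median log2 ratio of the 7 genes was -0.45, against 0.01 over all genes, and with Pparg as an eighth gene it was -0.23 under ribosomal protein scaling and -0.28 with a floor of 50. Since the 8 genes were chosen with such values known, the share is a description only.

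The 3 h array against the adrenalectomized one compares mice 3 h after cortisol with mice not injected. No vehicle-injected group was named, and the time since surgery of the injected mice was not given. Cortisol, the injection itself and that time therefore cannot be told apart, here or at 24 h. None of the 7 genes passed 1.5-fold (9.82% of 6168 genes did). Fasn alone of the 7 was at least 25% higher, as 12.0% of all genes were, and 0 were at least 20% lower. The median of the 7 was 0.01, against -0.02 over all genes, and it was -0.12 when ribosomal protein probe sets set the scale. That scaling moved the median of all genes to -0.16, brought Pparg above the floor and turned the signs of Fabp4, Acly and Scd1, but not those of Adipoq, Retn, Lipe and Fasn. With it Retn and not Fasn was past the size used, at -0.39 and 0.25 on the log2 scale.

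At 24 h against adrenalectomized mice, the later time point, none of the 7 passed 1.5-fold (10.0% of 6228 genes did). Retn was at least 20% lower, as were 13.3% of all genes, and Fasn at least 25% higher, as were 14.9%. The median of the 7 was 0.02, against 0.01 over all genes, and -0.03 under ribosomal protein scaling. From 3 h to 24 h none of the 7 passed 1.5-fold (11.6% of 6229 genes did) and none was 25% higher or 20% lower (30.5% of all genes were); the log2 ratios lay between -0.15 and 0.05. These comparisons share arrays, so their ratios are not independent of each other.

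Against intact mice, Adipoq and Retn were past 1.5-fold lower at 24 h, 2 of 7 genes, where 4.04% of 6219 genes were. Among genes with a mean signal of at least 300 it was 2 of 6 and 2.59% of 3983. With Lipe, 3 of the 7 were at least 20% lower, as were 12.4% of all genes. The median of the 7, which is the value of Scd1, was -0.23, against 0.03 over all genes. It was -0.14 with the mean of all probe sets of a gene, the second bright set of Scd1 being at -0.04, and -0.15 with a floor of 50, where Pparg joined. Of 18 lipolysis and lipid handling genes compared here, Fabp5 and Aqp7 were 1.69-fold and 1.57-fold higher. Of 17 fatty acid and triglyceride synthesis genes, Gpd1 was 1.59-fold lower and Agpat1 1.52-fold higher. Of all genes 9.99% passed 1.5-fold in either direction. Among these named genes only Fabp5 stayed past it under every alternative.

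**Figure D3:**
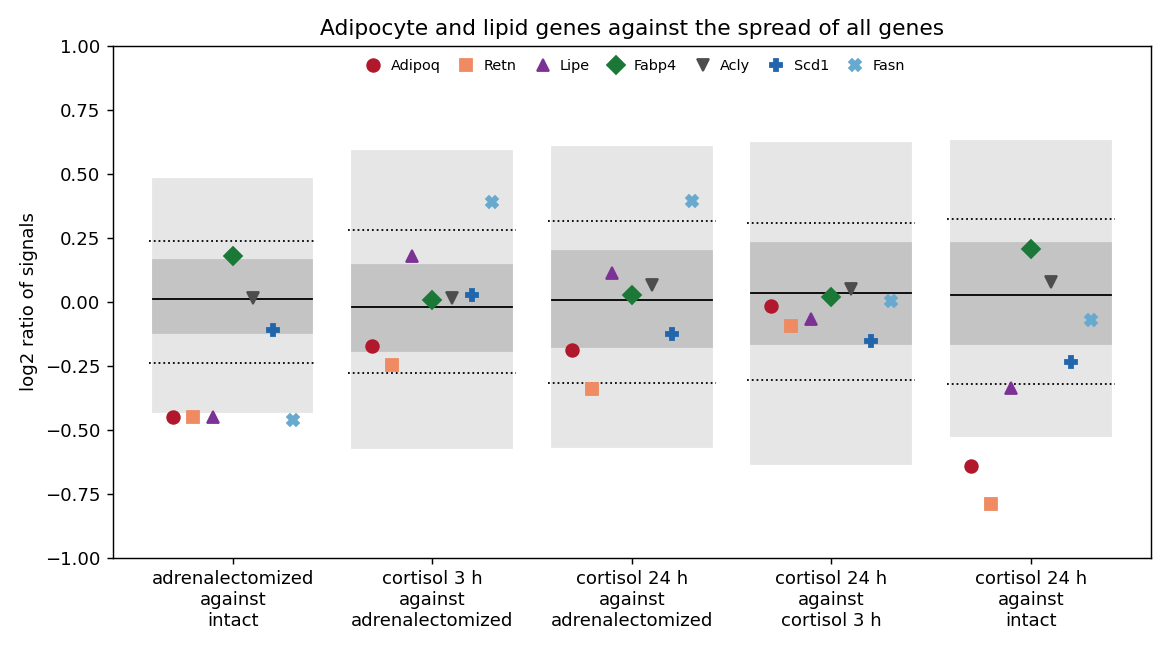
Log2 ratio of signals (vertical axis) of the 7 measured genes in the 5 comparisons, 1 symbol per gene by its brightest probe set. Light grey bars cover the 5th to 95th percentile of all genes, dark grey bars the middle 50%, black lines the median of all genes and dotted lines 1 error SD on each side of 0. Adipoq, Retn, Lipe and Fasn lie near -0.45 in the first comparison, and Adipoq and Retn at -0.64 and -0.79 in the last.

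Of 20 other listed markers, 16 were represented and 15 reached the floor. Cfd, Plin1, Adrb3 and Dgat2 were not represented, and Ucp1, the uncoupler of brown fat, was below the floor on all arrays. The following values are for the markers that were compared. Their median log2 ratio was -0.09 after adrenalectomy, with 1 of 15 past 1.5-fold, near the 4.91% of all genes. That gene was Agt, which encodes angiotensinogen and is also made by liver, with 284 in intact mice and 169 after adrenalectomy, 1.68-fold lower, or -0.51 on the log2 scale and no longer past 1.5-fold with a floor of 200. At 24 h Agt was below the floor and at least 1.69-fold lower than after adrenalectomy. Against intact mice, 2 of 15 passed 1.5-fold at 24 h, where 9.99% of all genes did. Agt was at least 2.84-fold lower, or -0.51 on the log2 scale and again not past 1.5-fold with a floor of 200. Aqp7, the glycerol channel gene, was 1.57-fold higher, or 0.58 on the log2 scale and not past 1.5-fold under median or quantile scaling. At 3 h, with a median of 0.03 that was negative under ribosomal protein scaling, Cidea, a lipid droplet gene, read 170 against a signal below the floor and was at least 1.70-fold higher. Lep, the gene of leptin, another fat cell hormone, was singled out after its values had been seen. By the brighter of its 2 probe sets, its signal was 654 in intact mice, 665 after adrenalectomy, 680 at 3 h and 851 at 24 h. It did not share the order of Adipoq and Retn. Its log2 ratio of 24 h to 3 h was 0.32 by that set but 0.01 by the mean of both. Lpl, of the same list and also made by muscle fibres, did share the order of the hormone genes, with 6686, 6290, 5472 and 4817.

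Of 34 listed genes of fatty acid and triglyceride synthesis other than the 8, 17 were compared after adrenalectomy and 0 passed 1.5-fold; their median was -0.05, and just above 0 under ribosomal protein scaling. Of 18 compared at 3 h, 0 passed 1.5-fold, with a median of 0.11. At 24 h 1 of 17 passed it, Scd2, a second desaturase gene, which was 1.52-fold higher with 1302 against 856, and the median was 0.07. Of all genes, 4.91%, 9.82% and 10.0% passed 1.5-fold in these 3 comparisons, and counts from so few genes are not far from these shares. Scd2 was not past 1.5-fold under ribosomal protein scaling, at 0.53 on the log2 scale, or by the mean of its probe sets, at 0.44. Among cholesterol synthesis genes, Sqle, the squalene epoxidase gene, had a signal of 174 in intact mice, 115 after adrenalectomy, 186 at 3 h and 204 at 24 h. Its log2 ratio after adrenalectomy was -0.59, and it was 1.61-fold and 1.77-fold higher than that at 3 h and 24 h. The adrenalectomized array was thus the lowest, as for Fasn, but its Sqle signal was near the floor. The list as a whole did not share this: after adrenalectomy 6 of 12 genes were higher and 6 lower than in intact mice. Cyp51 was highest there, at 157. Msmo1, a sterol oxidase gene, was at least 1.68-fold higher at 3 h and Cyp51, a sterol demethylase gene, at least 1.57-fold lower at 24 h. Past 1.5-fold were 1 of 12 listed genes after adrenalectomy, 2 of 13 at 3 h, and 1 higher and 1 lower of 13 at 24 h. Of all genes, 4.91%, 9.82% and 10.0% were. The medians of this list were 0.01 over 12 genes, a sign that turned under median and quantile scaling and both other floors, -0.04 over 13 and 0.11 over 13 in these 3 comparisons.

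Genes of lipolysis and lipid handling had medians of -0.10 over 18, -0.11 over 18 and -0.05 over 17. Lipa, which encodes lysosomal acid lipase, was 1.59-fold higher after adrenalectomy, with 207 against 131. Cidea was the only member past 1.5-fold at 3 h, and 0 passed it at 24 h. Of all genes, 4.91%, 9.82% and 10.0% passed it in these 3 comparisons. Among transcription factors and partners of PPAR and C/EBP type, 1 of 23 passed 1.5-fold after adrenalectomy, 7 of 24 at 3 h and 1 of 23 at 24 h, where 4.91%, 9.82% and 10.0% of all genes did. Cebpd, an early factor of fat cell formation, had a signal of 813 in intact mice, 1314 after adrenalectomy, 5503 at 3 h and 740 at 24 h, 4.19-fold higher at 3 h than after adrenalectomy and 1.78-fold lower at 24 h. Cebpb was 2.05-fold higher at 3 h, Ppara, the receptor that drives fatty acid oxidation, 2.29-fold, Klf5 1.73-fold and Gata3 at least 2.23-fold. Ebf2 was 1.58-fold lower and the coactivator gene Ppargc1a at least 1.87-fold lower. The list's median at 3 h was 0.07, and -0.074 under ribosomal protein scaling. Of the genes that carry the signals of adiponectin and resistin, 0 of 9, 1 of 8 and 1 of 8 passed 1.5-fold in these 3 comparisons, near the shares of all genes. Irs1, an insulin receptor substrate gene, was 1.52-fold lower at 3 h but not past 1.5-fold under median scaling, at -0.58 on the log2 scale, and Cdh13, whose product T-cadherin binds adiponectin, was 1.71-fold lower at 24 h, with 356 against 607. The adiponectin receptor genes Adipor1 and Adipor2, named after their values had been seen, lay between 834 and 1008 and between 1526 and 1794 over the arrays.

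Signals of other cell types also differed between these arrays, and their part in the values above was not tested. In bulk tissue, fewer cells of a type and less RNA of a gene per cell cannot be told apart. Of 25 listed hepatocyte markers 21 were represented and 14 reached the floor, while Apob, Apoh, Fgb, Fgg, Ambp, Fabp1 and Itih4 were below it on all arrays. Their summed signal, given above, was in the same order of arrays as the signals of Adipoq, at 73.2%, 65.0% and 64.2% of the intact value, and of Retn, at 73.1%, 61.7% and 57.8%. The sum of the other adipocyte markers was in that order too, at 97.8%, 95.7% and 95.1%, though not without its 5 brightest genes. Alb, the albumin gene, read 956 in intact mice, 686 after adrenalectomy, 282 at 3 h and 218 at 24 h. The summed signal of epidermis, hair and sebaceous markers, of which 17 of 21 reached the floor and Krt5, Krt14, Krt15 and Ivl did not, was 107.0% of the intact value after adrenalectomy, 263% at 3 h and 129% at 24 h. That of stromal and fibroblast markers was 108%, 91.6% and 80.7%, of macrophage markers 115%, 93.3% and 111%, and of endothelial markers 110.0%, 116% and 118%, while the sum of the other adipocyte markers, given above, was mostly that of 5 genes also made by muscle fibres. Erythroid markers, 5 of which reached the floor, summed to 104%, 114% and 112%, and 5 of 8 brown fat markers to 96.8%, 104% and 105%. Muscle fibre markers, fast and slow together, summed to 104%, 79.8% and 81.5%, with the slow myosin gene Myh7 4.02-fold lower at 3 h than after adrenalectomy. These markers did not move alike. In that comparison 8 of 17 were at least 1.5-fold lower, as were 4.75% of all genes, while the upper quartile of their log2 ratios was -0.08.

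**Figure D4:**
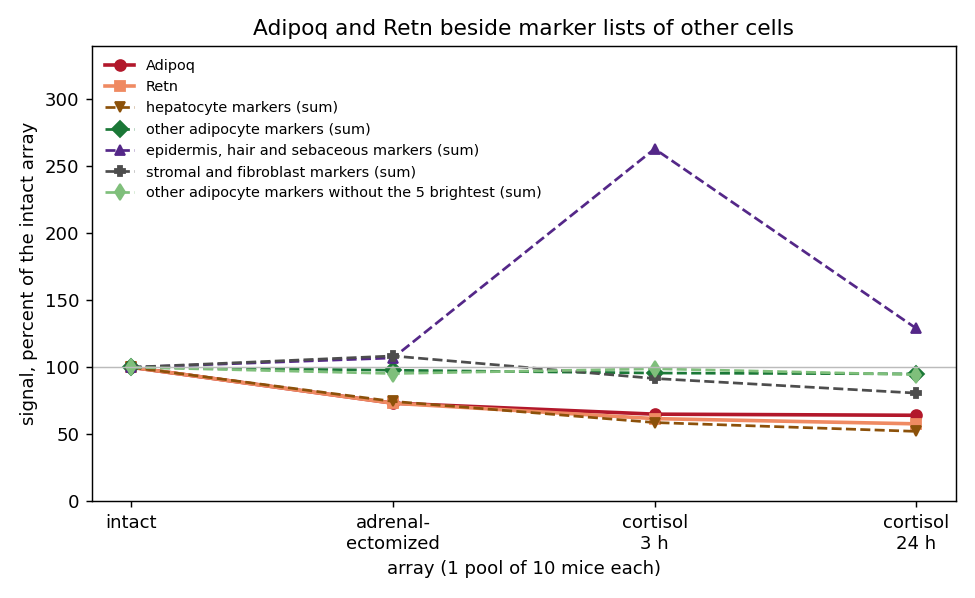
Signal as percent of the intact array (vertical axis, from 0) on the 4 arrays, for Adipoq and Retn (solid lines) and for the summed signal of the members of 4 marker lists that reached the floor, 1 of them also without its 5 brightest genes (dashed lines), 1 pool per point. Adipoq and Retn end at 64.2% and 57.8%, hepatocyte markers at 52.1%, and other adipocyte markers at 95.1%, a sum carried by 5 genes that muscle fibres also make, or at 94.5% without those 5, while epidermis, hair and sebaceous markers are at 263% at 3 h.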

How the data were processed

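Total RNA of pooled gastrocnemius muscle was hybridized to 4 arrays, 1 per group. The deposited values were linear probe set signal intensities that the authors computed with MAS 5.0, per the labels. Leaving out 2% at each end, their mean was between 500 and 500.6 on every array, so they had been scaled to that target. The instrument settings, per the file headers, put the intact array on fluidics module 1, the adrenalectomized one on 2, the 3 h one on 3 and the 24 h one on 4.

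Of 12488 probe sets, 66 controls were left out, and 20 of these had no value at 3 h. Each array was rescaled to a trimmed mean of 500 over the other 12422, signals under 100 were set to 100, and log2 ratios were taken with pandas 2.3.3 and numpy 2.4.6. Symbols came from the platform annotation: 10833 probe sets had 1 symbol, 396 several and 1193 none, and 10817 matched RefSeq's GRCm38.p6 gene table by gene ID, which changed 0 symbols. A gene was represented by its brightest probe set. A ratio needed 1 of its 2 arrays at the floor, and a fold against a signal below the floor is a bound. With 1 array per group, no p-value or SE was computed, and the number of arrays limits the precision.

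The error SD is that of the difference in log2 ratio between a gene's 2 brightest probe sets, both at the floor on both arrays, divided by the square root of 2, from 923 to 928 genes. With a mean signal of at least 300 for both probe sets it came from 491 to 503 genes. The ratio computation was tested on simulated data. The 8 genes, the 15 other gene lists and the 1.5-fold size were chosen with earlier results of these data known. All 8 genes are named, as are genes of the lipid and transcription factor lists past 1.5-fold in the 3 comparisons made with adrenalectomized mice and the 3 genes nearest in pattern to each of the 7 measured ones. The alternatives were median, ribosomal protein and quantile scaling, floors of 50 and 200, the mean of all probe sets, and leaving out probe sets with a suffix.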

Additional observations from a re-analysis of the deposited data

How the results depend on the processing

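For each of the 7 measured genes, all 245 ratios recomputed under the 7 alternatives stayed within 1 error SD of the reported ratio. Much of this was fixed in advance. All but Scd1 had 1 probe set, without a suffix, and signals above 200 on every array. The floors, the mean of all probe sets and leaving out suffixes therefore could not change their ratios. Median and ribosomal protein scaling shift all genes of a comparison alike. With ribosomal protein scaling the median of the genes was -0.23 for adrenalectomized against intact and -0.12 for 3 h against adrenalectomized, each over 8 genes since Pparg then passed the floor, and at 3 h 1 gene (Retn) was at least 20% lower and 0 were 25% higher. With a floor of 50 the median for adrenalectomized against intact was -0.28, again with Pparg. With that floor 1 of the genes, Pparg, passed 1.5-fold at 3 h against adrenalectomized (lower) and 1 at 24 h against 3 h (higher), so 1 was at least 20% lower and 1 at least 25% higher there. The count of all genes past 1.5-fold depended on the floor. In the order of the comparisons (adrenalectomized against intact, 3 h and 24 h against adrenalectomized, 24 h against 3 h, 24 h against intact) it was 300, 606, 623, 725 and 621, against 700, 1024, 1077, 1155 and 1082 with a floor of 50 and 112, 330, 292, 383 and 281 with a floor of 200. Without the hepatocyte, epidermis and slow fibre genes the counts were 296, 578, 600, 710 and 591, an alternative added after the data had been seen. For lists, ribosomal protein scaling turned the 3 h medians of transcription factors to -0.074, of adiponectin and resistin signalling to -0.031 and of erythroid markers to -0.013; it also turned small ratios of Fabp4, Acly, Scd1 and Lipe in some comparisons, and that of Adipoq from 3 h to 24 h. With a floor of 200, Lipa after adrenalectomy was at 0.05 on the log2 scale, Agt at -0.51, Sqle at 24 h at 0.03, and Gata3 and Klf5 at 3 h at 0.15 and 0.52, so those calls rest on signals near the floor. With ribosomal protein scaling Sqle was at -0.54 after adrenalectomy and 0.54 at 3 h, also no longer past 1.5-fold; the log2 ratio of Lep at 24 h against 3 h was 0.01 over its 2 probe sets and 0.32 by the brighter one. No paired analysis was possible because each group had 1 array, and no array could be left out.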
